A study of Mus musculus with 8 samples.

Results

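Translation factors are the proteins that carry a ribosome through initiation, elongation and termination, and the mRNAs that encode 37 of them outside the eIF4F cap complex are described here. Each member is a row of the count table whose Ensembl gene identifier belongs to one of 37 mouse symbols, which were chosen by function and not by their counts, out of 52550 genes in all. They comprise 5 factors of start-site selection and subunit joining (*Eif1*, *Eif1a*, *Eif5*, *Eif5b* and *Eif6*), 7 of eIF2 and its exchange factor eIF2B, 13 subunits of eIF3, 6 elongation factors with *Eif5a* counted among them, 3 factors of termination and recycling, the poly(A)-binding proteins *Pabpc1* and *Pabpc4*, and *Tpt1*. All 37 passed the filter on low values, a level of at least 1 CPM (reads on the gene per 1000000 gene reads of the library) in each of the 4 input libraries, as did 10754 genes in all.

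The RNA came from mouse embryonic stem cells (ESCs) in serum medium with LIF at 10 ng/ml and the inhibitors CHIR99021 at 1.5 µM and PD0325901 at 0.5 µM (2i), which hold ESCs in the naïve state. All libraries came from *Eif4a2* KO cells, and the controls carried the empty vector (EV) whereas the other cells re-expressed Flag-tagged eIF4A2 (Eif4a2flag). RNA immunoprecipitation (RIP) with 5 µg of anti-Flag antibody for 3 h recovers RNA that stays with the tagged protein, and the EV cells show what the antibody and beads recover where there is no tag. Input and RIP of each cell line made 4 groups of 2 libraries: input EV, input Eif4a2flag, RIP EV, and RIP Eif4a2flag. Re-expression was driven by a transposon-based vector in clonal KO cells, and separate clones served as its replicates according to the study's methods. The labels do not name the isoform, which the study gives as full length, and no source used here says whether the EV replicates were separate clones, so the p-values rest on a spread between libraries that may be partly technical. One label of RIP Eif4a2flag replicate 2 reads "RIP Eif4a3", while its title and genotype give Eif4a2flag, and it was used under the latter.

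eIF4A2 is an RNA helicase that, within eIF4F, unwinds the 5′ end of mRNAs so that the small ribosomal subunit can load. eIF3 and eIF2 with the initiator tRNA ride on that subunit, eIF1, eIF1A and eIF5 control the choice of the start codon, and eIF5B joins the large subunit. eEF1A, recharged by the eEF1B complex, then delivers aminoacyl-tRNAs, eEF2 moves the ribosome on, and eRF1 with eRF3 releases the finished protein. Many mRNAs of this machinery begin with a terminal oligopyrimidine (TOP) tract, a C followed by further pyrimidines, through which mTORC1 controls their translation.

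Reads on genes numbered 2044853 to 11206420 per library, with RIP EV replicate 1 the lowest. QuantSeq reads a tag near the 3′ end, about 1 per transcript, so CPM was not divided by length. The RIP EV libraries stood apart: edgeR put the biological coefficient of variation within RIP EV at 159%, against 23.0% to 30.0% within the other groups. Reads on the abundant noncoding gene *Gm42418* took 0.0701% to 13.6% of gene reads. The naïve markers *Pou5f1*, *Sox2*, *Nanog*, *Esrrb*, *Klf4*, *Zfp42*, *Tfcp2l1*, *Tbx3* and *Dppa5a* passed the filter, with a summed level of 1161 to 3118 CPM. The list of formative or primed markers (*Fgf5*, *Otx2*, *Pou3f1* and *Dnmt3b*) summed to between 103 and 305 CPM. Most of that was *Dnmt3b*, at 76.0 to 276 CPM. *Otx2* reached 54.1 CPM in input Eif4a2flag replicate 1, while *Pou5f1* had at most 31.4 CPM in any library. The primitive endoderm list summed to at most 2.71 CPM and the fibroblast list to between 0.825 and 6.87 CPM, with *Col3a1* and *Postn* at 0 in all 8 libraries. *Eif4a2* itself stood at 53.8 and 94.3 CPM in input EV and at 86.8 and 69.1 CPM in input Eif4a2flag. The tag lies near the 3′ end and the rescue was built from the coding sequence, so this level checks neither the knockout nor the re-expression.

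The comparison of RIP with input in Eif4a2flag cells asks which mRNAs were over- or under-represented beside the tagged protein. Most translation factor mRNAs were on the low side: 32 of 37 lay below the median of all transcripts, and the median of the members was 0.75 below it on the log2 scale. At an adjusted p below 0.05 (edgeR quasi-likelihood test on these 4 libraries, Benjamini-Hochberg over 10754 transcripts), 10 members were lower in the RIP and 1, *Gspt1*, was higher. Across all transcripts, 8.46% were lower and 8.44% higher. At an unadjusted p below 0.05, 22 members were lower and 2 higher, against 16.7% and 17.3% of all transcripts. The members were abundant, with a median of 281 CPM in input Eif4a2flag against 22.2 CPM over all expressed transcripts, and abundance moved with the result. Of the 1858 transcripts at 100 CPM or more in that input, 18.9% were lower and 4.41% higher, with a median of -0.38 relative to all transcripts, against 9 lower and a median of -0.70 for the 29 members at that level. The part of abundance in the members' shift was not tested. With TMM scaling the median of all transcripts stood at 0.02, and with library size alone at 0.32, so fold changes below are on the TMM scale and run lower than ratios of the CPM values given beside them. On all 8 libraries, which takes in the spread of RIP EV, edgeR called 0 members, with 0% of all transcripts higher and 0.0558% lower, and DESeq2 called 6 members lower and 0 higher, with 4% and 2.55% of all transcripts. Without RIP Eif4a2flag replicate 1 the members called lower were 6 and those higher 0, against 4.8% and 5.34% of all transcripts. Without replicate 2 they were 5 and 0, against 4.23% and 3.75%, and in both cases the lone RIP library is assumed to vary like the inputs.

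**Figure D1:**
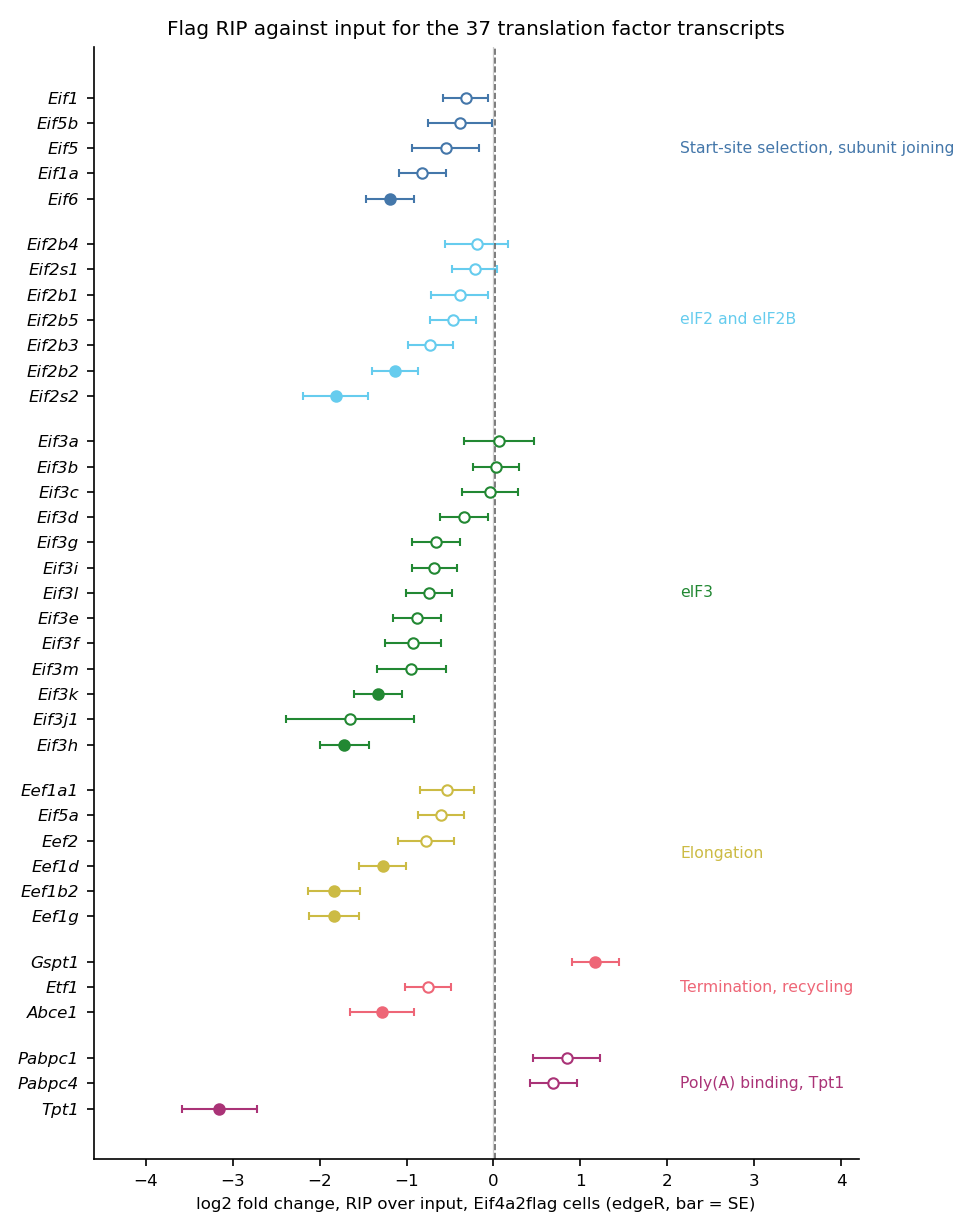
Log2 fold change of RIP over input in Eif4a2flag cells (horizontal axis, edgeR on 4 libraries) for each of the 37 members, grouped by role; bars are 1 standard error, filled points passed an adjusted p of 0.05, and the dashed line is the median of all transcripts at 0.02. Filled points are 10 members on the low side and *Gspt1* on the high side, and the poly(A)-binding pair is the only other one clear of the line to the right.

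Of the start-site and joining factors, 1 of 5 was lower in the RIP and all 5 lay below the median of all transcripts. *Eif6*, which keeps the ribosomal subunits apart, was read at 122 and 109.9 CPM in input Eif4a2flag and 71.7 and 54.5 CPM in the RIP. In EV cells its levels were 129.7 and 144 CPM in input and 47.4 and 74.1 CPM in the RIP. Both RIP groups thus lay below both inputs, and the log2 fold change in Eif4a2flag cells was -1.19 ± 0.27 (SE, adjusted p = 0.0196). The call was lost without RIP Eif4a2flag replicate 2. *Eif1*, the start codon fidelity factor, was the highest of the group at -0.32 ± 0.26 (adjusted p = 0.417). It gave 335 and 393 CPM in input Eif4a2flag, 384 and 337 CPM in the RIP, and 324 and 523 CPM in input EV, and these overlapped. Its RIP EV libraries held 431 and 707 CPM. *Eif1a*, *Eif5* and *Eif5b* were between these, from -0.82 to -0.38, and none passed the threshold.

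eIF2 brings the initiator tRNA to the small subunit and eIF2B recharges it with GTP. Of these 7 mRNAs, 2 were lower in the RIP and all 7 lay below the median of all transcripts. *Eif2s2*, the β subunit of eIF2, had 1317 and 686 CPM in input Eif4a2flag and 317 and 393 CPM in the RIP, without overlap, and a log2 fold change of -1.82 ± 0.37 (SE, adjusted p = 0.0126). The EV cells gave another order, with 836 and 791 CPM in input and 2627 and 2388 CPM in the RIP. *Eif2b2*, the β subunit of eIF2B, fell from 217 and 247 CPM to 142 and 119 CPM (-1.13 ± 0.26, adjusted p = 0.0196). Its EV libraries showed 234 and 298 CPM in input, and 39.6 and 205 CPM in the RIP. The call on *Eif2b2* was lost without either RIP Eif4a2flag library. *Eif2s1*, the α subunit of eIF2 whose phosphorylation slows initiation, differed from its partner with -0.22 ± 0.26 (adjusted p = 0.597). *Eif2b4* was the highest of the group at -0.19 ± 0.36 (adjusted p = 0.742), with 118 and 64.7 CPM in input Eif4a2flag, 80.8 and 118 CPM in the RIP, 138 and 126 CPM in input EV, and 380.5 and 237 CPM in the EV RIP.

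Among the 13 eIF3 subunits, 2 were lower in the RIP, none was higher, and 11 lay below the median of all transcripts. *Eif3h* had the lowest value of the group. Its levels were 1522 and 1625 CPM in input Eif4a2flag and 665 and 522 CPM in the RIP, a log2 fold change of -1.72 ± 0.28 (SE, adjusted p = 0.00599). EV cells held 1576 and 1216 CPM in input and 669 and 721 CPM in the RIP, so the RIP of both cell lines was low for this mRNA. *Eif3k*, a small subunit, went from 750.3 and 1023 CPM to 439 and 430.0 CPM in Eif4a2flag cells (-1.33 ± 0.28, adjusted p = 0.0136). In EV cells it went from 809.9 and 578 CPM to 268 and 514 CPM, again with both RIP libraries below both inputs. Without either RIP Eif4a2flag library the call on *Eif3k* was lost. The largest subunits stayed near the median of all transcripts: *Eif3a* was at 0.06 ± 0.40, *Eif3b* at 0.03 ± 0.26 and *Eif3c* at -0.04 ± 0.32, with adjusted p-values of 0.928, 0.951 and 0.938. *Eif3a* was uneven between the inputs of Eif4a2flag cells, with 858 and 376 CPM, and was read at 715 and 896 CPM in their RIP. In EV cells it stood at 534 and 442 CPM in input and 1918 and 1391 CPM in the RIP. The other 8 subunits ranged from -1.65 for *Eif3j1*, which had at most 19 reads in any library of Eif4a2flag cells, to -0.34 for *Eif3d*.

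The elongation factors had the lowest median of the 6 role groups, with 3 of 6 lower in the RIP and all 6 below the median of all transcripts, by 1.04 at the median. The 3 were the subunits of eEF1B, the complex that recharges eEF1A with GTP. *Eef1b2*, its α subunit, had 2579.8 and 2819 CPM in input Eif4a2flag and 1118 and 761 CPM in the RIP (-1.83 ± 0.30 SE, adjusted p = 0.00606). EV cells gave 2419 and 2693 CPM in input and 1509 and 2427 CPM in the RIP. *Eef1g*, the γ subunit, went from 1253 and 989 CPM to 405 and 374 CPM (-1.84 ± 0.29, adjusted p = 0.00516). It was also low in RIP EV, at 345 and 469 CPM against 998 and 634 CPM in input EV. *Eef1d*, the δ subunit, had 1078 and 1238 CPM in input Eif4a2flag and 566 and 614 CPM in the RIP (-1.27 ± 0.27, adjusted p = 0.0146). The EV cells ran the other way for *Eef1d*, with 1244 and 1406 CPM in input and 2684 and 1486 CPM in the RIP. The call on *Eef1d* was lost without either RIP Eif4a2flag library. *Eef1a1*, the factor that eEF1B serves, was the highest of the group at -0.53 ± 0.31 (adjusted p = 0.254). Its 176 and 112 CPM in input Eif4a2flag overlapped the 133 and 115 CPM of the RIP, and EV cells had 109 and 137 CPM in input and 117 and 45.4 CPM in the RIP. These levels are far below those of *Eef1b2*, and the last 300 bases of the *Eef1a1* transcript lie to 100% in runs of at least 50 bases that occur identically elsewhere in the genome. Reads with more than 1 alignment were not counted, so the level of *Eef1a1* is a lower limit. *Eef2*, the translocase, was at -0.78 ± 0.32 (adjusted p = 0.119).

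**Figure D2:**
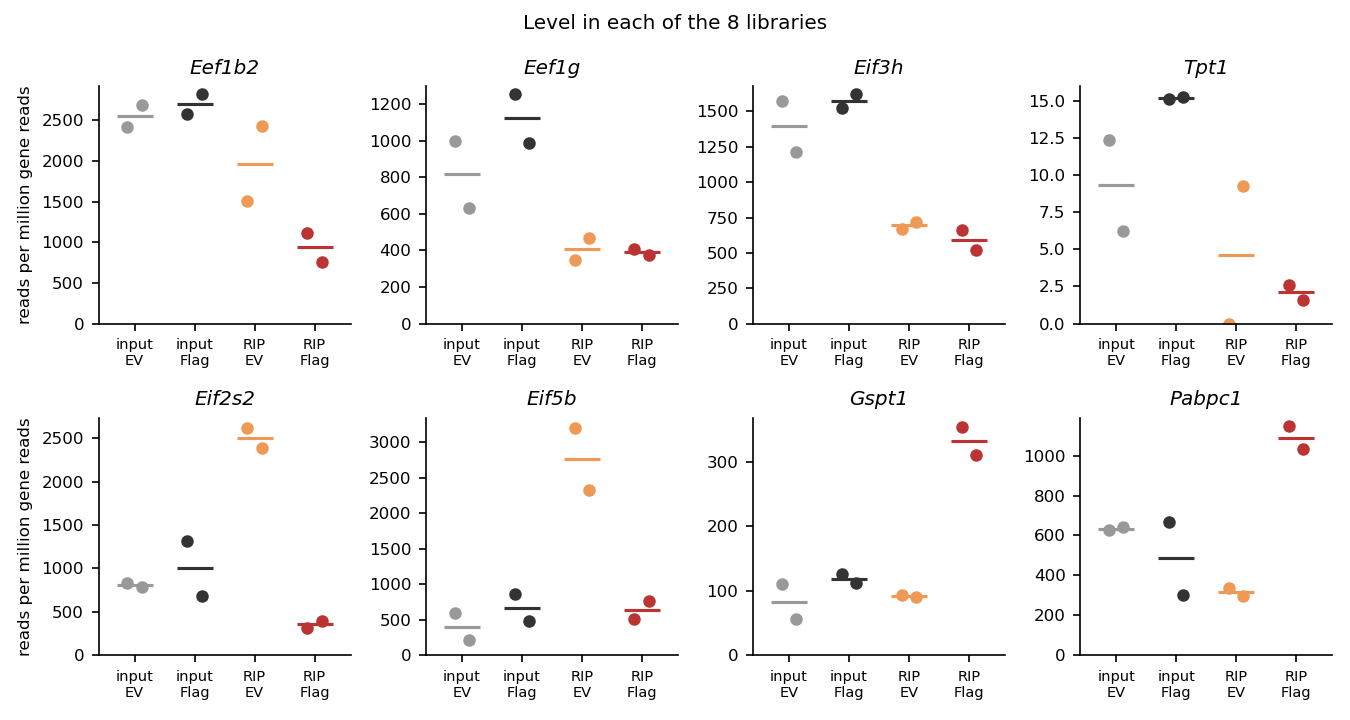
CPM (reads per 1000000 gene reads, linear axes from 0, a scale of its own for each gene) in each of the 8 libraries for 8 members; points are libraries and lines the mean of each group of 2, with Flag standing for Eif4a2flag cells. *Eef1b2*, *Eef1g*, *Eif3h* and *Tpt1* are lower in RIP Eif4a2flag than in its input, *Eif2s2* and *Eif5b* are highest in RIP EV, and *Gspt1* and *Pabpc1* are highest in RIP Eif4a2flag.

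Termination and recycling held calls in both directions. *Gspt1* encodes eRF3A, the GTPase that works with eRF1 at the stop codon, and was read at 125 and 112 CPM in input Eif4a2flag and 354 and 311 CPM in the RIP. Its log2 fold change was 1.17 ± 0.27 (SE, adjusted p = 0.0185). In EV cells the levels were 110.0 and 55.9 CPM in input and 92.4 and 90.3 CPM in the RIP, so both RIP Eif4a2flag libraries lay above the other 6. The call was lost without either RIP Eif4a2flag library. *Abce1*, the ATPase that splits ribosomes after termination, went from 376 and 186 CPM in input Eif4a2flag to 159 and 131 CPM in the RIP (-1.28 ± 0.37, adjusted p = 0.0402). EV cells had 327 and 323 CPM in input and 256 and 147 CPM in the RIP. *Abce1* lost its call without input Eif4a2flag replicate 1 and without either RIP Eif4a2flag library. *Etf1*, which encodes eRF1, the partner of *Gspt1*, was at -0.76 ± 0.26 (adjusted p = 0.0769).

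The poly(A)-binding proteins coat the mRNA tail and contact eIF4G, and their mRNAs had the next highest values after *Gspt1*. *Pabpc1* had 669.8 and 303 CPM in input Eif4a2flag and 1149 and 1034 CPM in the RIP, without overlap, but the fold change of 0.84 ± 0.38 did not pass the threshold (SE, adjusted p = 0.155). It passed with library size as the scaling (adjusted p = 0.0436), where *Pabpc4* passed too (adjusted p = 0.0357), and *Pabpc1* also passed without the filter and without input Eif4a2flag replicate 1. EV cells showed 627 and 642 CPM of *Pabpc1* in input and 337 and 294 CPM in the RIP. *Pabpc4* was at 0.69 ± 0.27 (adjusted p = 0.106), with 305 and 385 CPM in input Eif4a2flag, 753 and 619 CPM in the RIP, 349.5 and 262 CPM in input EV, and 447 and 899 CPM in RIP EV. *Tpt1*, a small abundant protein reported to bind eEF1A, had the lowest fold change of the 37, -3.15 ± 0.43 (adjusted p = 0.00346). Its levels were 15.1 and 15.3 CPM in input Eif4a2flag (70 and 95 reads), 2.59 and 1.60 CPM in the RIP (29 and 16 reads), and 12.4 and 6.24 CPM in input EV. RIP EV gave 9.27 CPM in replicate 2 and 0 of 2044853 gene reads in replicate 1, which allows up to 1.47 CPM by a floor of 3 counts, a limit that covers counting error only. Copies elsewhere in the genome cover 61.0% of the last 300 bases of *Tpt1*, so its level is a lower limit too. Where its counted reads lie was not examined. For *Pabpc1* such copies cover 100% and for *Pabpc4* 99%, so the levels of this pair are lower limits, as for *Eef1a1*.

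Copies of this kind touched the last 300 bases of 16 members. Beyond *Eef1a1*, *Tpt1*, *Pabpc1* and *Pabpc4*, they covered 94.3% in *Eif3e*, 77.3% in *Eif3a*, 76.3% in *Eif5a*, 72.7% in *Eif3m* and 60.7% in *Eef2*. They covered 46.7% in *Eif3h*, 39.0% in *Eef1b2*, and less in *Eif1*, *Eif3j1*, *Eif5*, *Eif3i* and *Eif6*. The levels of these members may be lower limits too, because reads with more than 1 alignment were not counted. The 21 members without such a copy had 6 lower and 1 higher with a median of -0.75 relative to all transcripts, against 4 lower, 0 higher and a median of -0.75 for the 16.

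Known TOP mRNAs among the members, taken from textbook knowledge, are *Eef1a1*, *Eef1b2*, *Eef1d*, *Eef1g*, *Eef2*, *Tpt1*, *Pabpc1*, *Eif3e*, *Eif3f* and *Eif3h*. Of these 10, 5 were lower in the RIP (*Eif3h*, *Eef1b2*, *Eef1d*, *Eef1g* and *Tpt1*) and 9 lay below the median of all transcripts, with a group median of -1.12 relative to it. The other 27 members had 5 lower, 1 higher, 23 below the median of all transcripts, and a group median of -0.62. The difference between these lists was not tested. The windows below run from 10 bases before to 20 bases after the RefSeq start on GRCm38.p6, and are shown for the 5 TOP members with a window in the table and for *Gspt1*, the member that was higher in the RIP. Capitals mark the longest stretch that opens with C, holds only C and T, has at least 5 letters, and begins within 5 bases of that start, read on the transcript's strand.
Eef1a1: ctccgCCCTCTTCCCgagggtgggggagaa
Eif3f: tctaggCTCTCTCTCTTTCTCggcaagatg
Eef1b2: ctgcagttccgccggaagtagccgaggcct
Eef2: aaggccgggcgttgacgtcagcggtctctt
Tpt1: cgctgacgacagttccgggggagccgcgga
Gspt1: ggacacagacgggaactaccgaggcgaagg
They lie at chr9:78481705-78481734 (minus strand), chr7:108934405-108934434 (plus), chr1:63176821-63176850 (plus), chr10:81176621-81176650 (plus), chr14:75845246-75845275 (plus) and chr16:11254306-11254335 (minus). *Eef1a1* has a stretch of 10 letters and *Eif3f* of 15, and neither mRNA was past the threshold in the RIP. The annotated starts were not compared with measured 5′ ends, so a marked stretch is not shown to be the TOP tract of the mRNA. *Eef1b2*, *Eef2*, *Tpt1* and *Gspt1* have none in these windows, which says only that the letters are not there. Of the 27 members with a window, 6 had such a stretch (22.2%), against 18.3% of all 32851 windows. Of these 6, 2 were on the TOP list and 4 were not. Among the latter, *Eif2b2*, with a stretch of 8 letters, was called lower in the RIP, and the rest were not called.

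Fold changes also ran with the size of the encoded protein. All 9 members with proteins under 300 residues lay below the median of all transcripts and 5 were called lower (*Eif6*, *Eif3k*, *Eef1b2*, *Eef1d* and *Tpt1*), with a median of -1.29 relative to all transcripts. Between 300 and 600 residues, 19 of 19 lay below and 5 were called lower, with a median of -0.76. Above 600 residues, 4 of 9 lay below, 1 was called higher (*Gspt1*) and none lower, with a median of 0.01. Over all transcripts of any size, 8.46% were called lower and 8.44% higher. The shares within each size class were not computed, so these counts have no background of matching size. Across the 37 members, Spearman's rho between fold change and protein length was 0.53, and across 10088 expressed coding transcripts it was 0.49. It stayed between 0.42 and 0.57 when single libraries were left out, with the lowest value without input Eif4a2flag replicate 2. With the longest annotated transcript in place of the protein, rho was 0.27 for the members. The points share 4 libraries and genes are not replicates, so these are descriptions without a p-value. The relation was present across all coding transcripts too, so it is not shown to be particular to translation factors. Whether the members' rho differs from that of all coding transcripts was not tested.

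**Figure D3:**
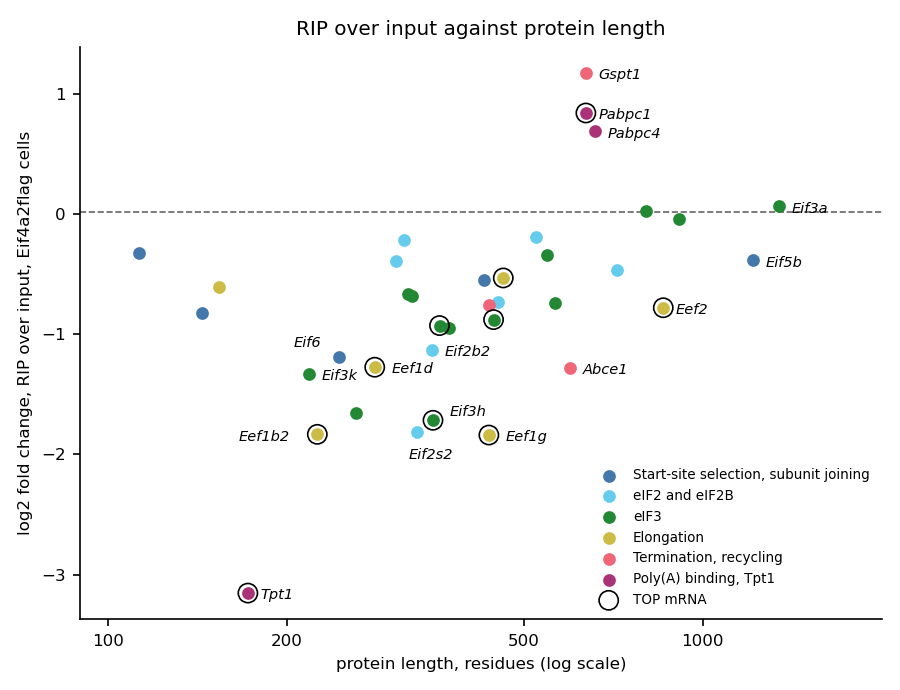
Log2 fold change of RIP over input in Eif4a2flag cells (vertical axis) against the length of the encoded protein in residues (horizontal, log scale) for the 37 members, coloured by role, with known TOP mRNAs ringed and the median of all transcripts dashed. All 28 members up to 600 residues lie below the dashed line, and the 3 highest, *Gspt1*, *Pabpc1* and *Pabpc4*, encode proteins above 600 residues.

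The EV cells show how each mRNA behaved without the tag. RIP EV was set against input EV by the order of the CPM values only. Both RIP EV libraries lay above both inputs for 9 members (*Eif5b*, *Eif2s2*, *Eif2b4*, *Eif3a*, *Eif3b*, *Eif3c*, *Eif3g*, *Eef1d* and *Pabpc4*) and below both for 14, while 14.6% of all transcripts lay above and 44.9% below. *Eif5b*, the subunit-joining GTPase, had the largest such ratio apart from the sparsely read *Eif3j1*, and went from 591 and 209 CPM in input EV to 3196 and 2320.1 CPM in RIP EV, a ratio of mean CPM of 6.89. In Eif4a2flag cells it was read at 853 and 477 CPM in input and 505 and 761 CPM in the RIP. Ratios for *Eif3a* and *Eif2s2* were 3.39 and 3.08. These 3 mRNAs hold the stretches richest in A among the members together with *Pabpc1*, with 18 A in 20 bases in *Eif3a* and 17 in *Eif5b*, *Eif2s2* and *Pabpc1*. *Pabpc1* was lower in RIP EV than in input EV. For the rho values that follow, 1 CPM was added to both means of the RIP EV over input EV ratio. Across the members, Spearman's rho between this ratio and the count of A was 0.41, against 0.11 across 10088 coding transcripts. The same ratio had a rho of 0.45 with the longest annotated transcript (0.14 across 10751 transcripts) and of 0.35 with protein length (0.18 across 10088), so the count of A is not set apart from length, and the part of either was not tested. Between that ratio and the edgeR fold change of RIP over input in Eif4a2flag cells, which share no library, the members had a rho of 0.21.

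**Figure D4:**
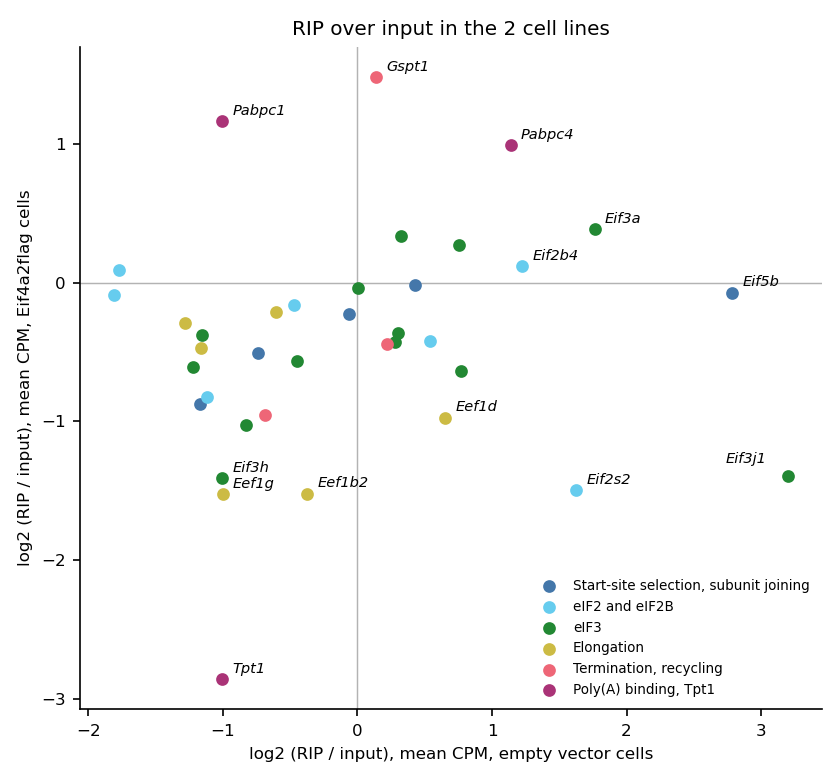
Log2 ratio of mean CPM in RIP over input for the 37 members, in EV cells (horizontal axis) and in Eif4a2flag cells (vertical axis), coloured by role; each ratio rests on 2 libraries against 2. *Eif2s2* and *Eef1d* are high in the RIP of EV cells and low in that of Eif4a2flag cells, *Pabpc1* is the reverse, and *Eif5b* lies far to the right near 0 on the vertical axis.

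The comparison of the 2 RIP groups asks what was recovered beyond the background of antibody and beads. With edgeR on these 4 libraries 0 members and 0% of all transcripts passed in either direction, at the spread of RIP EV given above. At an unadjusted p below 0.05, 3 members were higher and 7 lower, against 24% and 5.31% of all transcripts. DESeq2 on the same libraries called *Eef2*, *Gspt1* and *Pabpc1* higher and *Eif5b*, *Eif2s2*, *Eif2b4*, *Eif3a*, *Eef1b2* and *Eef1d* lower, where 7.75% of all transcripts were higher and 4.96% lower, so the 3 of 37 on the high side are near the background. edgeR on all 8 libraries called 3 higher, the same 3, and 6 lower, with *Etf1* in place of *Eif3a*, while 24.8% of all transcripts were higher and 5.46% lower. By the order of the CPM values, both libraries of RIP Eif4a2flag exceeded both of RIP EV for 9 members, among them *Gspt1*, *Pabpc1*, *Eef2* and *Eif2s1*, and lay below both for 11. Of all transcripts 51.9% lay above and 12.1% below, and the median of the members was 0.97 below that of all transcripts, which itself stood at 0.67 with TMM scaling and at 0.91 with library size alone. *Eef2* went from 933 and 1095 CPM in the EV RIP up to 3255 and 2095 CPM with the tag, a log2 fold change of 1.16 ± 0.29 (SE, adjusted p = 0.0786). Relative to all transcripts that is 0.49. For *Gspt1* and *Pabpc1* the fold changes were 1.63 ± 0.32 and 1.56 ± 0.23, and for *Eif2s2* -3.05 ± 0.24, each at an adjusted p of 0.065. Leaving out RIP EV replicate 1 gave 6 members higher and 15 lower, against 43.8% and 21.6% of all transcripts, and leaving out RIP EV replicate 2 gave 9 and 11, against 59% and 18.6%. RIP EV is then a single library, and the spread in these fits comes from RIP Eif4a2flag alone. Leaving out RIP Eif4a2flag replicate 1 gave 0 members higher and 1 lower (0.186% and 0.456% of all transcripts), and replicate 2 gave 0 and 2 (0.205% and 0.744%). This comparison shares the RIP Eif4a2flag libraries with the one against input.

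Re-expression of the tagged protein left no change detectable at this depth in the abundance of these mRNAs. Between the inputs, edgeR called 0 members and 0% of all transcripts in either direction, and DESeq2 on the same 4 libraries called 0 members, with 12 transcripts (0.112%) higher and 5 (0.0465%) lower. At an unadjusted p below 0.05 the edgeR fit had 3.74% of all transcripts higher and 3.66% lower, with 0 members higher and 1 lower, *Eif2b1*, at 47.7 and 28.7 CPM in input EV and 16.7 and 23.9 CPM in input Eif4a2flag (-0.95, adjusted p = 0.666). The members' fold changes lay between -0.95 and 0.71, which at 2 libraries a group does not show that levels were alike. In RNA pooled from many cells, fewer cells with a transcript and less of it per cell cannot be told apart. Summed over the 37, the members took 1.88% and 1.73% of gene reads in input EV, 2.08% and 2.01% in input Eif4a2flag, 2.02% and 1.98% in RIP EV, and 1.55% and 1.38% in RIP Eif4a2flag. The share of gene reads was 1.47% ± 0.119 (SD, n = 2) in RIP Eif4a2flag against 2.05% ± 0.0535 in its input, and no test was made. Of all uniquely aligned reads, which also count those outside genes, the members took 1.41% and 1.09% in input EV, 1.59% and 1.68% in input Eif4a2flag, 0.607% and 0.985% in RIP EV, and 1.46% and 1.29% in RIP Eif4a2flag. RIP Eif4a2flag thus lay below its own input on both totals, while its order against RIP EV turned with the total used.

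Further genes of the pathway were read from 2 lists. Of 27 tested cytosolic translation factors and regulators outside the 37, 4 were higher in RIP Eif4a2flag than in its input and 3 lower. Of all transcripts 8.44% were higher and 8.46% lower, and these small counts were not tested against those shares. The median of the list was -0.27 relative to all transcripts. *Eif2s3y*, the Y-linked γ subunit of eIF2, went from 2.38 and 2.09 CPM to 16.2 and 12.9 CPM (2.40 ± 0.44 SE, adjusted p = 0.00864). *Larp1*, which binds TOP mRNAs and the cap, went from 22.9 and 19.0 CPM to 118 and 147 CPM (2.36 ± 0.30, adjusted p = 0.00245). RIP EV was uneven for both, with 0 reads in replicate 1 and 17.6 CPM of *Eif2s3y* and 109 CPM of *Larp1* in replicate 2. The eIF2α kinases *Eif2ak3* and *Eif2ak4* were the other 2 called higher, at 1.54 and 1.83. Lowest were *Naca*, a subunit of the nascent chain complex on the ribosome, at -1.53 ± 0.29 (adjusted p = 0.0104), and *Eif1ad* at -1.22 ± 0.31 (adjusted p = 0.0264), and *Denr*, a recycling factor, was the third called lower at -1.19. Of 9 mitochondrial translation factors, 1 was lower and none higher, beside the same shares of all transcripts, with a median of -0.07 relative to all transcripts. *Mrrf*, the mitochondrial recycling factor, was at -1.47 ± 0.35 (adjusted p = 0.0219) and *Mtrf1* at -0.86 ± 0.41, while *Gfm1* and *Mtif2* were the highest at 0.87 ± 0.30 and 0.47 ± 0.32, and these 3 did not pass the threshold.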

How the data were processed

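The deposited table holds raw counts, whole numbers without normalization, for 52550 genes and 5 summary lines in 8 libraries of 4 groups. According to the methods and the submitters' processing notes, the authors made QuantSeq 3′ libraries with the forward kit and sequenced single reads of 50 bases. Reads were trimmed with bbduk, aligned to mm10 with STAR (version 2.5.3a), and counted with HTSeq (version 0.11.2). Neither the release of the gene annotation nor whether reads were counted by strand is given in the sources used here, so overlapping and antisense genes are uncertain. The summary lines stayed out of totals: multiply aligned reads took 27.0% to 52.1% of a library, reads outside genes 3.30% to 45.8%, and ambiguous reads 0.366% to 0.759%. Gene names, positions, and coding lengths came from GENCODE vM21 (GRCm38, the same build), which matched 52403 identifiers, and start windows from RefSeq.

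Transcripts that reached 1 CPM in each of the 4 inputs were tested with edgeR (version 4.0.16, R version 4.3.3) by quasi-likelihood on the 4 libraries of each comparison, with TMM factors and Benjamini-Hochberg adjustment at 0.05. The standard error was the fold change divided by the square root of F. DESeq2 (version 1.42.0), other scalings and filters, fits of 8 libraries, the replicate number as a block, and leaving out each library were alternatives. The script was tested on simulated data. Copies were runs of at least 50 identical bases, the read length before trimming, found with BLAST between a member's transcript and other loci. Trimmed reads can be shorter than these runs, so members without a copy by this rule may also lose reads. For each role the highest and lowest change, every called member, and the 2 highest and 2 lowest of each other list are named; *Eif5b*, *Eif2s1*, *Eef2*, *Etf1*, *Pabpc4*, *Eif3b*, *Eif3c*, *Eif2b1*, *Eif2ak3*, *Eif2ak4* and *Denr* were named beyond that rule after their values were seen. Members, lists, and the choice to fit 4 libraries were made with earlier results of these data known. *Mtrfr* and *Eif5al1* had no match by symbol, and *Pelo* failed the filter.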

Additional observations from a re-analysis of the deposited data

Results flagged for a closer look

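In 3 of 37 members (8.11%) the RIP lay on opposite sides of the input in the 2 cell lines, by the CPM of every library, as it did for 2056 of 10754 expressed transcripts (19.1%). *Eif2s2* had a log2 RIP over input ratio of mean CPM of -1.50 in Eif4a2flag cells and 1.62 in EV cells, a difference of -3.12. *Eef1d* had -0.97 and 0.65, a difference of -1.63. *Pabpc1* had 1.17 and -1.01, a difference of 2.17, and its levels are lower limits because of copies of its 3′ end. These differences between the cell lines were not tested, and RIP EV is the group with the widest spread between its libraries.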

How the results depend on the processing

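For RIP over input in Eif4a2flag cells, transcripts called higher and lower (908 and 910) became 1933 and 567 with library size alone, 1408 higher without the filter, 0 and 6 with edgeR on 8 libraries, 274 and 430 with DESeq2 on 8, and 403 to 1314 and 455 to 1108 when single libraries were left out. Members called higher and lower (1 and 10) became 3 and 8, 2 and 11, 0 and 0, and 0 and 6 in the same order, and 0 to 2 and 5 to 15 without single libraries. *Eif2s2*, *Eif3h*, *Eef1b2*, *Eef1g* and *Tpt1* were called lower whichever library was left out. Against RIP EV (0 and 0), transcripts were 5 and 24 without the filter, 2664 and 587 with edgeR on 8 libraries, 833 and 533 with DESeq2 on 4, 3270 and 1128 with DESeq2 on 8, and 20 to 6349 and 49 to 2321 without single libraries. Members there were 0 and 1, 3 and 6, 3 and 6, 4 and 10, and 0 to 9 and 1 to 15. Between inputs (0 and 0), transcripts were 1 and 2 with library size alone, 38 and 17 without the filter, 12 and 5 and then 13 and 3 with DESeq2 on 4 and 8, and 0 to 32 and 0 to 53 without single libraries, with 0 members throughout. The labels give the groups shared replicate numbers. Deviations of same-numbered libraries from their group means correlated at 0.00171, -0.0275 and 0.118 in the 3 comparisons. At 2 libraries a group this cannot show whether same-numbered libraries came from the same clone or culture. The main fits used no pairing. With the replicate block, the calls against input were 749 and 699 with 1 and 9 members, against RIP EV 210 and 171 with 1 and 3 members, and between inputs 39 and 22.

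The summed share of the members became 1.93%, 2.155% and 2.27% of gene reads without *Gm42418* in input EV, input Eif4a2flag and RIP EV, and 1.25%, 1.635% and 0.796% of all uniquely aligned reads. In RIP Eif4a2flag it was 1.48% and 1.38% on these totals, so that group is the lowest on gene reads but its mean lies above that of RIP EV and, with libraries that overlap, of input EV on uniquely aligned reads. By single libraries it was 1.73% to 1.88%, 2.01% to 2.08%, 1.98% to 2.02% and, in RIP Eif4a2flag, 1.38% to 1.55%. Spearman's rho with length was 0.269 on the longest transcript and 0.423 to 0.572 without single libraries. Fold changes against input that turned sign were all of members not called in the main fit. With library size alone they were *Eif2s1* (0.092), *Eif2b4* (0.12) and *Eif3c* (0.27). *Eif3b* turned with DESeq2 size factors (-0.00048) and DESeq2 on 4 libraries (-0.00039). Over single libraries left out, the values ran from -1.05 to 0.21 for *Eif5*, -0.78 to 0.16 for *Eif5b*, -0.60 to 0.37 for *Eif2b4*, -0.44 to 0.85 for *Eif3a*, -0.078 to 0.14 for *Eif3b* and -0.39 to 0.41 for *Eif3c*. For *Eif5* the low end came without input Eif4a2flag replicate 2 and the high end without replicate 1. The cause of these moves was not tested beyond the construction of each setting. With 2 libraries a group, depth and the spread of RIP EV limit what can be called.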
